A study of Caenorhabditis elegans with 4 samples.

Results

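RNA polymerase II was mapped in late embryos of *Caenorhabditis elegans*, and the 969 regions described here are those placed on chromosome II, out of 5364 regions on 6 nuclear chromosomes. They were taken by chromosome name, with no filter on width or q-value. The low count on the left of the chromosome was known from earlier work on the same list, so the contrast along the chromosome is a description. The data came from chromatin immunoprecipitation and sequencing (ChIP-seq), in which chromatin fixed to the polymerase is pulled down with an antibody and its DNA is compared with unselected input chromatin. There were 2 ChIP libraries and 2 input libraries, all from hermaphrodite cultures of the wild-type strain N2 at 20 °C, harvested 4.5 hours after the early embryo stage. The labels name no mutation, transgene or treatment for any library. The antibody named for the ChIP libraries, 8WG16, is a mouse monoclonal that binds the repeated tail of the largest polymerase subunit, the product of *ama-1*. A protocol text shared by all libraries speaks of serum against GFP instead. Titles number 2 extractions, and nothing in the labels says that these were separate cultures.

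RNA polymerase II transcribes all protein-coding genes and many small RNA genes. In worm embryos at this age most cells leave the division phase and differentiate, so whole embryos hold polymerase from muscle, gut, skin and nerve precursors mixed together. Autosomes of this species have gene-dense, conserved centres with little recombination, and arms with more repeats and more young gene families. Many worm genes also lie close together, some in operons that are transcribed as a unit, so neighbouring occupied stretches are common.

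Occupancy was available as 1 combined list of regions in which ChIP exceeded input, on the WormBase build WS180, with a start, an end and a q-value for each region, which is a p-value adjusted for the number of candidates tested. The q-values are the authors' own. The largest in the list was 0.00998. A wide region reaches a smaller q-value than a narrow one at equal enrichment, because it holds more reads. The list has no value per library, and library depth is unknown. No spread between replicates and no test between conditions could therefore be given. Intervals below are exact 95% binomial intervals (Clopper-Pearson for shares, order statistics for medians). They cover counting error only and treat regions as independent, although regions lie in clusters, so they are too narrow. Positions are given in bases from the left end of the chromosome, and a span runs to the end of the last region.

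Chromosome II held 18.1% of the listed regions (interval 17.0 to 19.1%) on 15.3% of the summed spans. That was 63.4 regions per Mb on II, against 92.5 on I, 72.3 on III, 49.0 on IV, 38.9 on V and 19.7 on X. II thus stood between III and IV in number of regions per length. The regions of II covered 678 kb, which was 4.44% of the span of II, where III had 4.55% and IV had 3.92%. The RefSeq gene table of the later assembly WBcel235 lists 3446 protein-coding genes on II, which gives 28.1 regions per 100 genes there, against 37.7 on III and 26.1 on IV. Of the 969 regions, 635 (65.5%) had a q-value of at most 0.001, and over the whole list the share was also 65.5%. By that measure II did not stand apart from the list.

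The left part of chromosome II carried fewer regions than the rest. With the span cut into 3 parts of equal length, the left part (1 to 5091537) held 250 regions, the middle part (5091538 to 10183075) held 362 and the right part (10183076 to 15274613) held 357. These were 49.1, 71.1 and 70.1 regions per Mb. The left part's share of the regions was 25.8% (interval 23.1 to 28.7%), where an even spread would give 33.3%. Its density was 0.695 times that of the middle and right parts together (interval 0.60 to 0.80). The left part was singled out with its low count known, so neither interval serves as a test against an even spread. The middle and right parts held nearly the same number.

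By covered bases the left part also lay lowest. Regions covered 3.30% of the left part, 5.35% of the middle part and 4.68% of the right part. The position that divides the regions of II into equal numbers was 8.57 Mb, or 56.1% of the span. The first 25% of the regions reached as far as 5.0 Mb, and the first 75% as far as 11.6 Mb. The placement of regions on II was therefore shifted to the right of the midpoint.

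**Figure D1:**
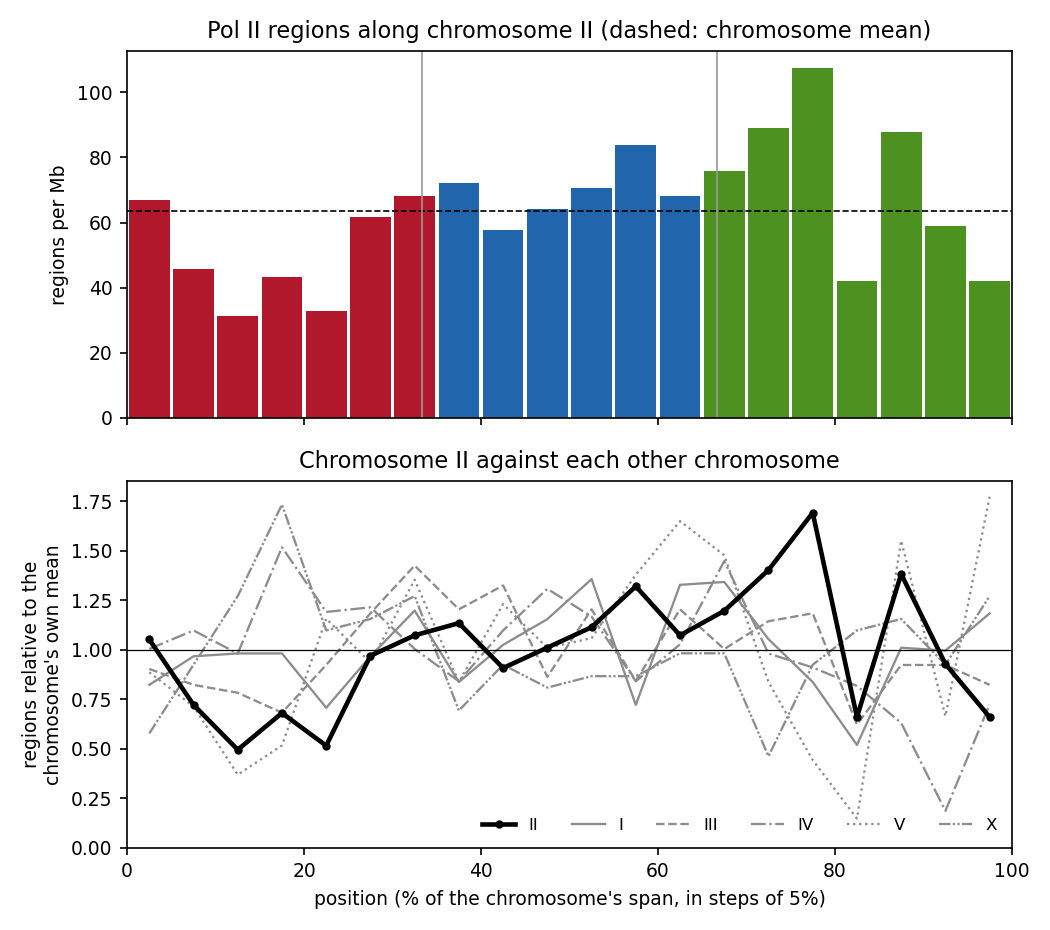
The upper panel shows regions per Mb (vertical axis) on chromosome II in 20 steps of 5% of its span (horizontal axis), coloured by the part in which the step's midpoint lies (left red, middle blue, right green; grey lines mark the borders). The lower panel shows each chromosome's counts divided by its own mean, with II in black and the other 5 chromosomes in grey. On II the steps from 10 to 15% and from 20 to 25% are lowest, at 31.4 and 32.7 regions per Mb, and the step from 75 to 80% is highest, at 107 per Mb.

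The lowest counts were not at the tip of the chromosome. Counted in 100-kb windows, the first 0.6 Mb held 49 regions (81.7 per Mb), and each of its 6 windows held at least 6. From 0.6 to 4 Mb there were 127 regions (37.4 per Mb), with a median of 2.5 per window, and 17 of these 34 windows held 2 regions or fewer. From 4 to 14 Mb there were 729 regions (72.9 per Mb), with a median of 7 per window. The last 1.27 Mb held 64 regions (50.2 per Mb). These borders were chosen after the window counts were seen, so the values describe the profile and support nothing further. The sparse stretch made up 22.3% of the span and held 13.1% of the regions.

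In steps of 1 Mb, the counts on II ran from 34 regions (1 to 2 Mb) to 101 regions (11 to 12 Mb), with a median of 65 over the 15 full steps. The step from 3 to 4 Mb was the next lowest, with 36 regions covering 20.7 kb, the smallest covered length of any full step. The step from 11 to 12 Mb covered 81.4 kb and held 11 of the 68 regions of 2000 bp or more on the chromosome. It led both in number and in covered length. The steps between 4 and 14 Mb other than that one held 57 to 78 regions each.

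Other chromosomes were not all sparse on the left. The density of the left part relative to the rest was 0.695 on II, against 0.767 on V, 0.907 on I, 0.951 on III, 1.23 on X and 1.24 on IV. II had the lowest value of the 6 when the regions as listed were counted. Counting that one, it was lowest in 6 of the 7 ways of choosing, merging or weighting regions that were computed for all chromosomes. For the 50% of listed regions with the smallest q-values, II had 0.811 and V had 0.743. The left part was singled out for its low count on II, so this ranking favoured II beforehand, and the 7 ways reuse the same regions. On IV the right part was the low one, with 36.9 regions per Mb, against 56.2 in the left part and 53.9 in the middle part. The same ratio for right parts was not computed. Stretches as sparse relative to the mean occurred elsewhere on other chromosomes. The emptiest 3.4 Mb on II (126 regions, starting 3.27% into the span) had 0.590 times the chromosome's mean density, against 0.486 on V (starting at 69.6% of the span) and 0.563 on IV (starting at 77.3%). On I, III and X the lowest such values were 0.793, 0.830 and 0.735. Thin stretches of this depth were therefore not limited to II. Differences between chromosomes in these values were not tested.

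Long empty stretches were most frequent in the left part. Fewer regions on an equal length leave longer gaps on average, so this is not separate from the lower count. The left part held 12 of the 22 gaps of 100 kb or more on II, where a gap is the number of bases between neighbouring regions. These 12 gaps took up 1948 kb, or 38.3% of the left part, while gaps this long took up 12.9% of the middle part and 16.3% of the right part. Outside such gaps the left part held 79.5 regions per Mb and the other parts together held 82.7. With gaps of 50 kb or more set aside, the densities were 109.9 and 120 per Mb. Leaving out empty sequence can by itself bring 2 densities closer, so these values show where regions were missing and not how far the parts differ.

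The 3 longest gaps on II were all in the left part. The longest spanned 300.3 kb (3597502 to 3897826), between regions of 641 bp (q-value 2.36e-08) and 412 bp (q-value 0.00469). The second spanned 274.8 kb (1510135 to 1784967), and the third spanned 270.6 kb (1820159 to 2090794). The 35.2 kb between the second and the third held 3 regions, and they were the only ones between 1510135 and 2090794.

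The next gaps in length lay on the right. One of 237.8 kb (12349469 to 12587303) followed soon after one of the 2 fullest windows of the chromosome. The fifth spanned 179 kb (15039955 to 15218976). Beyond it, the last 55.6 kb of the span held 15 regions with widths from 3 to 2741 bp and a median of 261 bp. Each of these 5 gaps was bordered on at least 1 side by a region of 502 bp or less. The median width over all regions of II was 410 bp, so such borders are common and do not mark out these gaps. At the other end the first region lay at 21338 to 21509.

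Over all 968 gaps on II the median was 2767 bp (quartiles 654.5 and 18096 bp), against 2968.5 bp on the other 5 chromosomes. No neighbours were closer than 201 bp. Gaps of at most 1000 bp made up 33.1% on II, against 32.6% elsewhere, and gaps of 20 kb or more made up 23.2% on II, against 24.4% elsewhere. The pooled shares hide wide differences between chromosomes. Gaps of 20 kb or more ranged from 15.2% on I to 50.7% on X, with 26.8% on IV and 29.2% on V, and gaps of at most 1000 bp from 20.3% on X to 37.5% on I. Median gaps ran from 2026.5 bp on I to 22021 bp on X, so II lay between these extremes in all 3 measures. Within II the median gap was 3477 bp in the left part, 2767 bp in the middle part and 2497 bp in the right part. The shares of 20 kb or more were 28.1%, 23.2% and 19.9% in the same order, and those of at most 1000 bp were 30.1%, 32.0% and 36.1%. From left to right, short gaps thus took a larger share and long gaps a smaller one.

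**Figure D2:**
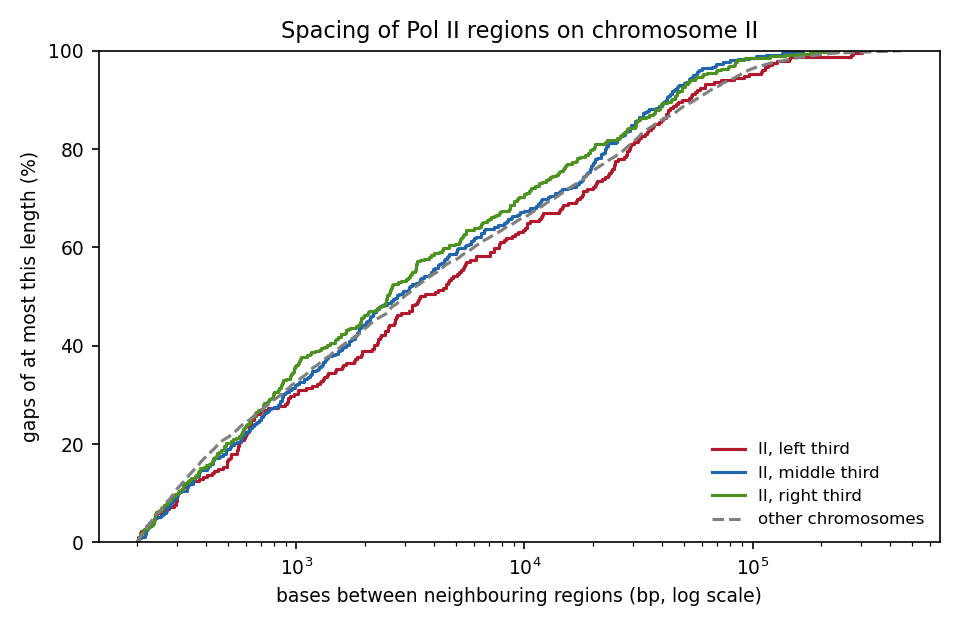
Cumulative share of gaps (vertical axis, percent) against gap length (horizontal axis, bp on a log scale) for the left, middle and right parts of chromosome II and, dashed, for the other 5 chromosomes. The curve of the left part lies lowest over most of its range, and its median of 3477 bp compares with 2767 bp in the middle part and 2497 bp in the right part.

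Empty and crowded windows both occurred in all 3 parts of the chromosome. The 153 windows of 100 kb (the last of them cut short by the end of the span) had a median of 6 regions and an interquartile range of 3 to 9. No region had its midpoint in 11 windows (7.19%), against 2.17% of windows on III, 4% on I, 11.4% on IV, 20.1% on V and 20.9% on X. Of the 11 empty windows, 6 were in the left part, 1 in the middle part (6000001 to 6100000) and 4 in the right part. Only 1 pair of empty windows was adjacent (3600001 to 3800000), inside the longest gap. At the crowded end, 20 windows held 12 or more regions. They were 13.1% of the windows and held 29.3% of the regions, and 6 of them were in the left part, 5 in the middle part and 9 in the right part. The left part thus held crowded windows as well as most of the empty ones.

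The fullest windows lay in different parts of the chromosome. The window from 5300001 to 5400000 held 20 regions covering 12.1 kb, in 11 runs, where a run is a series of regions with gaps of at most 1000 bp or a region on its own. The window from 12200001 to 12300000 also held 20 regions, covering 13.7 kb, but in 6 runs. The next were 11000001 to 11100000 and 11300001 to 11400000, with 17 regions each. These covered 17.9 kb and 6.42 kb, so the same number of regions took up very different lengths. The fifth, from 4100001 to 4200000 in the left part, held 16 regions covering 8.20 kb.

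Ranked by covered length, a window of the left part came first. The window from 4500001 to 4600000 held 12 regions that covered 22.3 kb, with a median width of 1365.5 bp and 4 regions of 2000 bp or more. It was followed by 9200001 to 9300000, with 10 regions covering 20.8 kb, and 11600001 to 11700000, with 12 regions covering 18.3 kb. This second ranking was added after the values were seen. Over the 153 windows the number of regions and the covered length had a Spearman correlation of 0.90, a value that is partly built in because every region adds to both.

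**Figure D3:**
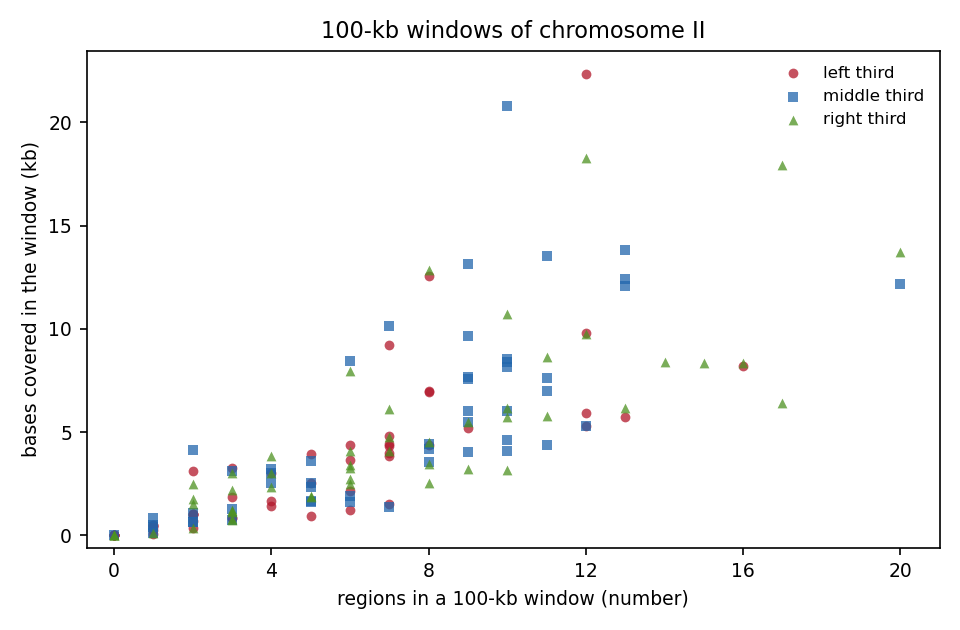
Bases covered by regions (vertical axis, kb) against the number of regions (horizontal axis) in each 100-kb window of chromosome II, with 1 point per window, coloured by part. Windows with 12 regions cover as much as 22.3 kb, while the 2 windows with 20 regions cover 12.1 and 13.7 kb.

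Close neighbours formed 649 runs on II. Of these, 481 were single regions and 168 held 2 or more, together 488 regions (50.4% of those on II). The longer runs were few: 19 runs held 5 or more regions, 121 in all, with 6 runs in the left part, 5 in the middle part and 8 in the right part. Counted as runs, the left part had 34.4 per Mb, against 46.5 in the middle and right parts together, a ratio of 0.738. The left part was therefore also sparse when each run was counted once. Runs regroup the same regions, and whether a run is 1 place of occupancy was not tested. The number of regions per run was 1.43 in the left part, 1.47 in the middle part and 1.57 in the right part.

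The run with most regions held 14 in 15.8 kb (12207522 to 12223355), in the right part. Its regions were 66 to 2138 bp wide and covered 61.7% of the run. The smallest q-value among them was 2.95e-38 and the largest 0.00631, and 10 of the 14 had a q-value of at most 0.001. Regions of very unequal q-value thus stood side by side in it. A run of 8 regions in the left part (4114703 to 4124225) had widths from 13 to 2230 bp and a smallest q-value of 2.30e-21. A second run of 8, in the right part (13278871 to 13285690), had widths from 6 to 1034 bp and a smallest q-value of only 2.57e-09. The longest run by length spanned 20.6 kb in the left part (4571088 to 4591643). It held 7 regions that covered 84.9% of it, all with a q-value of at most 0.001, and it lies in the window with the greatest covered length.

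Regions in runs were wider by median than single ones, on II as on the other chromosomes, a description without a test. On II the median width was 553 bp for regions in runs of 5 or more, 475 bp in runs of 2 to 4 and 321 bp for single regions. On the other chromosomes these medians were 583, 509 and 358 bp. The share with a q-value of at most 0.001 was 76.0% in runs of 5 or more, 71.9% in runs of 2 to 4 and 58.0% for single regions on II. Elsewhere these shares were 77.1%, 69.2% and 60.0%. Wide regions leave shorter gaps beside them and have smaller q-values, so the 3 measures are not independent of each other. On II, 64 regions (6.60%) had 20 kb or more of empty sequence on both sides, against 7.85% elsewhere. These isolated regions had a median width of 273.5 bp on II, against 394 bp on the other chromosomes, and 2 of the 64 were 2000 bp or wider (3.13%, against 8.41% elsewhere). They were 9.20% of the regions in the left part, 6.63% in the middle part and 4.76% in the right part. The values for isolated regions elsewhere pool unlike chromosomes and were not split by chromosome. Gaps of 20 kb or more ranged from 15.2% on I, with a median width of 358 bp over all its regions, to 50.7% on X, with 674 bp.

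Most regions on II were short. The median width was 410 bp (interval 376 to 437 bp; quartiles 200 and 799 bp), against a median of 435 bp elsewhere. Among single chromosomes I had the smallest median, 358 bp, and X the largest, 674 bp. Widths ran from 1 bp, found for 2 regions, to 10902 bp. There were 98 regions under 100 bp (10.1%, against 9.62% elsewhere), and they held 0.587% of the covered bases. At the other end, 68 regions of 2000 bp or more were 7.02% of those on II, against 6.92% elsewhere, and held 34.7% of the covered bases. In its widths II thus resembled the pooled list closely.

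Median widths were similar in the 3 parts, although the number of regions was not. The median was 416 bp in the left part (interval 360 to 497 bp), 432 bp in the middle part (378 to 477 bp) and 372 bp in the right part (317 to 426 bp). The 3 intervals overlap, which does not show that the medians are equal. In the sparse stretch from 0.6 to 4 Mb the median was 412 bp, against 415 bp from 4 to 14 Mb. Broad regions were 4.72% of the regions in that stretch, against 7.68% from 4 to 14 Mb. Over full steps of 1 Mb the median width ranged more widely, from 297 bp (13 to 14 Mb) to 523 bp (8 to 9 Mb). Broad regions were less frequent per length on the left. The left part held 14 regions of 2000 bp or more, and the middle and right parts held 27 each, a density ratio of 0.519 for the left part against the rest. As a share of the regions present, they were 5.60% in the left part, against 7.51% in the rest.

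The q-values on the left showed fewer extremes but a smaller median. Left regions had a median q-value of 4.91e-05, and the regions of the other parts together had 0.00016. Of the left regions 68.0% lay at or below 0.001, against 64.7% of the others. In contrast, 4 of 250 left regions (1.60%) lay at or below 1e-50, against 31 of 719 others (4.31%), and 0 of 250 left regions lay at or below 1e-100, against 13 of 719 others. The 10 regions with the smallest q-values on II included 5 in the middle part, 5 in the right part and 0 in the left part. Of the 50 with the smallest q-values, 8 were in the left part, 20 in the middle part and 22 in the right part. The left part held 25.8% of all regions on II. Left regions thus did not have larger q-values throughout, and they were among the 50 smallest on II but not among the 10 smallest.

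The leading region of the left part was 3676 bp wide (4587968 to 4591643) and had a q-value of 3.54e-89, which ranked it at 74 in the whole list. It is the last region of the 20.6 kb run. A 5046 bp region (1232981 to 1238026) followed with a q-value of 1.33e-57. The next, 4986 bp wide (2996976 to 3001961), had 1.57e-52. Both lie in the sparse stretch from 0.6 to 4 Mb, so broad regions with small q-values were present there too. The widest region of the left part, 6162 bp (4572083 to 4578244, q-value 1.39e-48), is in the same run as the leading one. These left regions were named after their values were seen, apart from the last, which is among the 5 widest on II.

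The 10 regions of II with the smallest q-values lay to the right of 5.5 Mb. Chromosome II supplied 12 of the 50 smallest q-values of the whole list (24%), where its share of regions was 18.1%. The smallest q-value of the list belonged to a 4862 bp region at 94.3% of the span (14403404 to 14408265, q-value 1.55e-282), the end of a run of 4. The next on II was also its widest region, 10902 bp at 69.1% of the span (10541841 to 10552742, q-value 6.19e-244), which stood with gaps of 2613 and 2426 bp to its neighbours. It was the fifth widest region of the list. A 4296 bp region (11633826 to 11638121) followed with a q-value of 2.23e-236.

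Near 60% of the span 2 strong regions were separated by less than 100 kb. One was 4943 bp wide (9257698 to 9262640) with a q-value of 1.38e-222, and the other 3797 bp (9160277 to 9164073) with 2.55e-184. Another broad region close by, 6791 bp wide (9294088 to 9300878, q-value 4.27e-100), is among the 5 widest on II. The others of the 10 with more than 1000 bp lay at 14249144 to 14252040 (2897 bp, q-value 5.06e-175), at 7808984 to 7812913 (3930 bp, 1.71e-168) and at 11974024 to 11979923 (5900 bp, 1.93e-164). These leading regions were spread over most of the middle and right parts.

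Regions under 1000 bp reached the top of the ranking in 2 places, both in the middle part. They were narrow only beside the other leading regions, since the median width on II was 410 bp and the upper quartile 799 bp. One spanned 987 bp (5543361 to 5544347, q-value 2.38e-178), with gaps of 69.1 and 43.4 kb to its neighbours, so it stood alone. The other spanned 753 bp (5844614 to 5845366, q-value 1.79e-147), with gaps of 5.08 and 21.6 kb. Both ranked among the 35 smallest q-values of the whole list, while in width they ranked at 1048 and 1475. The next smallest q-value among regions under 1000 bp on II was 7.86e-60 (10168874 to 10169859). The median q-value of the 219 regions on II from 500 to below 1000 bp was 3.80e-06, and the first 2 had the smallest q-values of that class. On the other chromosomes 1 region under 1000 bp also had a q-value below 1e-100, at 6.41e-125.

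Great width did not always go with the smallest q-values. The 6838 bp region at 8898375 to 8905212, the second widest on II, had a q-value of 2.32e-37 and ranked at 207 in the list. A 6323 bp region (6842069 to 6848391), the fourth widest, had 4.17e-75. The largest q-value among regions of 2000 bp or more belonged to one 2060 bp wide (10061676 to 10063735), at 7.23e-06, still below the median of 0.000131 over all regions of II. Width therefore did not fix the rank. Across the 969 regions width and −log10 q-value had a Spearman correlation of 0.68, against 0.63 across the 4395 regions elsewhere, given as a description because both depend on the number of reads.

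**Figure D4:**
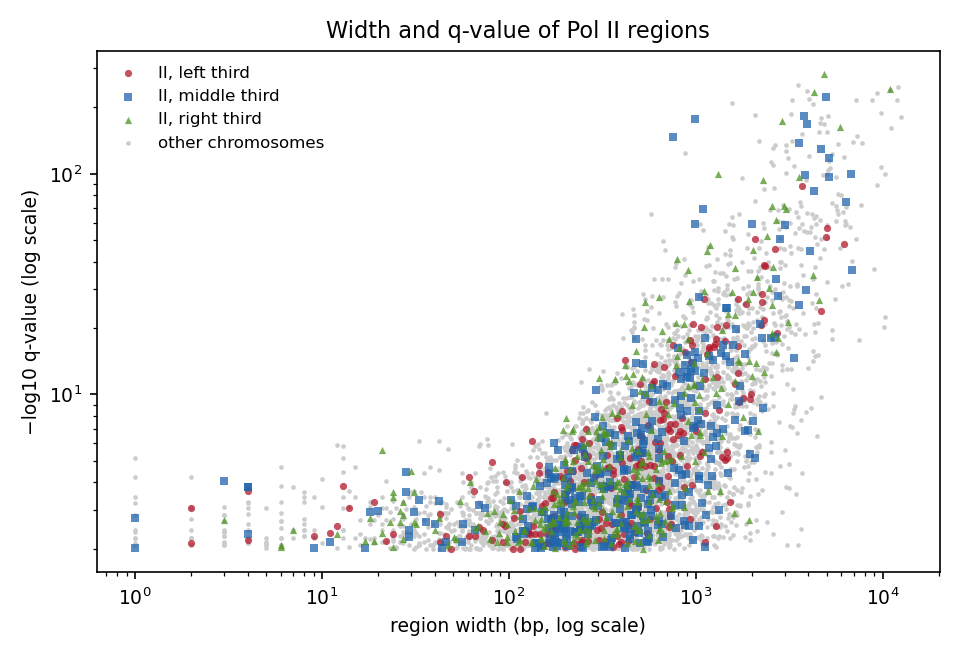
The −log10 q-value (vertical axis, log scale) against width (horizontal axis, bp on a log scale) for each region of chromosome II, coloured by part, over the regions of the other 5 chromosomes in grey. The 2 regions of II under 1000 bp with −log10 q-values above 100 lie to the left of the other regions of II above 100. There is 1 grey region under 1000 bp also above 100, and no region of the left part reaches 100.

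By width class, the median q-value on II was 0.00272 under 100 bp, 0.000592 from 100 to below 500 bp and 2.24e-11 from 1000 to below 2000 bp. It was 8.23e-35 from 2000 to below 5000 bp, against 1.51e-23 elsewhere, and 2.51e-97 in the 9 regions of 5000 bp or more, against 5.64e-75 elsewhere. Broad regions on II thus had smaller median q-values than broad regions elsewhere, a contrast that was not tested. The values elsewhere pool unlike chromosomes and were not split by chromosome. No region was assigned to a gene, because the gene table used here is of another build than the list, and for the same reason no sequence is shown.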

How the data were processed

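Per the file headers, the deposited list is on WormBase WS180 and was made with PeakSeq, which calls regions where ChIP reads exceed input reads. The q-value of each region is as deposited by the authors, 1 list for both ChIP and both input libraries. The aligner, filters, caller settings, library depths and the way replicates were joined are not given in the sources used here, and how they bear on the values was not tested.

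Rows were selected by chromosome name. Widths, gaps (bases between neighbours), 100-kb windows, runs (gaps of at most 1000 bp) and parts of equal length were computed from the 1-based starts and ends, with each region placed by its midpoint. Spans ran from base 1 to the end of the last region. Shares have Clopper-Pearson intervals and medians have exact binomial ones. No test was run, since the list has no replicate values. The text names the 10 regions with the smallest q-values, the 5 widest, the 5 fullest windows, the 5 longest gaps and the 3 runs with most regions, plus others chosen after their values were seen. Members and rules were chosen with earlier results of these data known. Alternatives used other subsets, merging, covered bases, window sizes and borders. The functions were checked on a made list. Scripts ran in Python 3.11.15 with pandas 2.3.3, numpy 2.4.6 and scipy 1.17.1, and plots were drawn with matplotlib 3.10.9.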

Additional observations from a re-analysis of the deposited data

How the results depend on the processing

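The density of the left part relative to the rest of chromosome II stayed below 1 in all 10 alternatives computed, from 0.629 (first 25% of the span against the other 75%) to 0.811. The last value, for the 50% of listed regions with the smallest q-values, was the only one outside the interval of 0.60 to 0.80. Without the first 600 kb, an alternative added after seeing the data, it was 0.634. The 10 alternatives used the same list again, and the left part had been singled out with its low count known. Values below 1 were therefore likely beforehand and are not separate evidence. Cutting the parts between the first start and the last end, counted among the 10, gave 0.695 again. The other measures moved in the following cases. For the smallest 50% of q-values, the median width was 672 bp, broad regions 13.6%, the median gap 7125 bp and the density 32.7 regions per Mb. At a q-value of at most 0.001 these were 556 bp, 10.7%, 4666.5 bp and 41.6 per Mb. With neighbours closer than 500 bp merged they were 456 bp, 12.3%, 5280 bp and 51.5 per Mb, and closer than 1000 bp 495.5 bp, 17.8%, 9119 bp and 42.6 per Mb. Without regions under 100 bp, the median width was 462 bp and the density 57.0 per Mb. Lower densities and longer gaps follow from having fewer or joined regions. Greater widths follow from the joining or from dropping short regions, and for the q-value limits the cause was not tested. Empty windows were 20.9% at 50 kb and 1.30% at 200 kb. The remaining 17 of 38 values stayed inside their intervals. No paired analysis was possible because values per library are not in the combined list, and leaving out a replicate could not be tried. Regions per gene along the chromosome were not run, as no gene map of the build was used. Depths are unknown, so empty sequence may be either unoccupied or occupied too weakly to be listed.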
